A study of Homo sapiens with 9 samples.

Results

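Integrins, laminins, collagens and matrix proteases were followed in sorafenib-sensitive and sorafenib-resistant liver cancer cells as 35 genes, each measured by 1 probe set. They were taken from a table of 11013 probe sets, of which 9784 genes with a single annotated symbol were tested, by the start of the symbol: ITGA, ITGB, LAMA, LAMB, LAMC, COL and a digit, ADAM, MMP and a digit, TIMP and a digit, or THBS. COL12A1 and COL1A2 were left out by the same rule. Of the 35 genes, 32 belong to a named family: 5 integrin alpha chains, 2 integrin beta chains, 3 laminin chains, 3 collagen chains, 7 ADAM and 4 ADAMTS members, 4 matrix metalloproteinases, 3 TIMP inhibitors and 1 thrombospondin. The other 3 share only the letters: ADAM1A is a pseudogene, ITGB1BP1 encodes a protein that binds an integrin tail, and ITGB3BP encodes a centromere protein.

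Huh7 is an established human hepatocellular carcinoma line, and sorafenib is a kinase inhibitor given to patients with this cancer. RNA from 9 cultures was measured on 9 transcriptome arrays, with 3 arrays in each of 3 groups. Huh7-R-A7 is a clone that was grown out of 1 colony of Huh7-R, Huh7-R is the resistant population before cloning, and Huh7-S is the parental, sensitive line that was never selected. Both resistant groups come from parental cells that received weekly pulses of 10 µM sorafenib, each lasting 4 h, over 6 weeks, then sorafenib in the medium at doses rising to 6 µM. The drug was taken away 5 to 7 days before the experiments, so no group was in drug at harvest, and all groups shared the same basal medium. Each group stands for a single line, population or clone, so p-values measure the spread between its cultures. Clones other than A7 are named in the descriptions of replicates 2 and 3 of the clone, and the titles were followed here.

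Integrins are cell-surface receptors made of an alpha and a beta chain, and the alpha chain sets which matrix protein is bound. Laminins and type IV collagen build the basement membrane that integrins attach to. ADAM proteases shed proteins from the cell surface, ADAMTS proteases cut proteoglycans and other matrix proteins, matrix metalloproteinases cut collagens and further substrates, and TIMP proteins inhibit these enzymes.

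Values are log2 signals after robust multi-array averaging (RMA). Levels of different genes cannot be set against each other on arrays, so each gene is compared only with itself. Each difference is between group means (n = 3 per group) with the standard error (SE) of a limma fit and its Benjamini-Hochberg adjusted p over the 9784 genes, and a gene passed at an adjusted p below 0.05. A signal of log2 6 was taken as the noise limit, and where a group mean lay below it a fold is a bound computed with arrays below 6 set to 6. At least 2 arrays held exactly equal values for 20 of the 35 members, which can make their spread too small.

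Huh7-S replicate 1 stood apart from the other arrays of its group. It correlated with them at 0.976 and 0.977 across genes, where replicates otherwise correlated at 0.993 to 0.998. ITGA2, ITGA5 and MMP14 lay more than 1 log2 unit from both other Huh7-S arrays on it, and THBS1 lay that far from its other replicates on replicate 1 of both resistant groups. Of the liver and Huh7 marker list, 10 of 13 genes were in the table used here, and 8 had a group mean above log2 6 in Huh7-R-A7, 8 in Huh7-R and 10 in Huh7-S, with APOA1 and SERPINA1 below it in both resistant groups. The mean of these markers ranged over arrays from 11.95 to 12.70 in Huh7-R-A7, 12.51 to 12.95 in Huh7-R and 13.39 to 14.02 in Huh7-S. They did not all fall: 6 passed lower and 0 higher in the clone, and 7 lower and 1 higher in the pool. The higher one was FGB, with 13.76 to 14.55 in Huh7-R-A7, 14.63 to 15.16 in Huh7-R and 11.82 to 14.16 in Huh7-S. The study's methods describe the table as filtered of genes with low signal, and none of 8 endothelial markers was among the genes analysed here. Of 11 stellate cell and fibroblast markers, 1 was in the table, the matrix proteoglycan LUM, with 8.64 to 9.27 in Huh7-R-A7, 8.53 to 8.81 in Huh7-R and 5.22 to 5.43 in Huh7-S. Of 9 leukocyte markers CD68 and LYZ were in the table, with a mean from 9.94 to 10.45 in Huh7-R-A7, 10.19 to 10.79 in Huh7-R and 7.83 to 11.38 in Huh7-S, and they differed in opposite directions. CD68 ranged from 13.20 to 13.52 in Huh7-R-A7, 12.73 to 13.28 in Huh7-R and 8.11 to 11.09 in Huh7-S and passed higher in both comparisons, at 4.17 in the clone and 3.84 in the pool. LYZ ranged from 6.69 to 7.45 in Huh7-R-A7, 7.64 to 8.30 in Huh7-R and 7.56 to 11.67 in Huh7-S, with differences of -1.84 and -0.92 that did not pass. The part of these shifts in the results below was not tested, and in bulk RNA a change in the share of cells and a change in RNA per cell cannot be told apart.

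Most members differed between resistant and parental cells. Calls ran in both directions among the integrins, collagens, ADAM and ADAMTS members, downward among the laminins and matrix metalloproteinases, and upward in 1 TIMP. Against Huh7-S, 12 of the 35 members rose and 13 fell in Huh7-R-A7 (71.4%), where 42.7% of all genes passed, 18.0% higher and 24.6% lower. In the pool Huh7-R, 10 rose and 13 fell (65.7%), where 45.1% of all genes passed, 19.0% higher and 26.2% lower. The median difference of the members was 0.09 in the clone and -0.01 in the pool, beside -0.04 and -0.03 over all genes. The 3 arrays of each group did not overlap for 26 members (74.3%) in the clone comparison, where this held for 52.4% of all genes, and for 25 (71.4%) in the pool comparison, where it held for 53.0%. The split over all genes, 1763 higher and 2411 lower in the clone, turned to 2341 higher and 2091 lower when each array was centred on its median, and 12 members were then higher and 12 lower. In the pool, 1855 genes were higher and 2561 lower, against 2423 and 2197 after centring, with 11 members higher and 12 lower. On the fold, or on its bound where a group mean lay below the noise limit, 8 passing members reached 2-fold in the clone, where 9.28% of all genes did, and 5 in the pool, where 9.71% did. On the log2 differences as measured, with no noise limit, these were 12 (10.8% of all genes) and 5 (11.1%), the clone count then including COL4A6, TIMP1, ADAM22 and MMP15. Stricter limits after the study's methods, a p below 0.0001, taken here as the unadjusted p of limma, with a fold over 3 or under 0.25, were met on the fold or its bound by MMP16 alone in the clone (2.19% of all genes) and in the pool (2.07%). On the differences as measured, MMP16 alone met them in the clone (2.82% of all genes), and MMP16 and TIMP1 in the pool (2.57%).

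The clone and pool comparisons share the Huh7-S arrays, and each has its own values below. Passing higher in both were ADAM15, ADAM17, ADAM28, ADAMTS9, TIMP1, COL4A5, COL4A6, ITGA5, ITGB1 and ITGB1BP1. Passing lower in both were ADAM22, ADAM23, ADAMTS6, MMP15, MMP16, COL5A2, ITGA1, ITGA6, ITGAV, ITGB5, LAMB2, LAMC1 and ITGB3BP. In the reported fit ADAM9 and ADAMTS1 passed higher in the clone comparison alone. Whether they differed between clone and pool is given by a test of its own below. The remaining 10 members passed in neither, and no member passed in opposite directions.

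**Figure D1:**
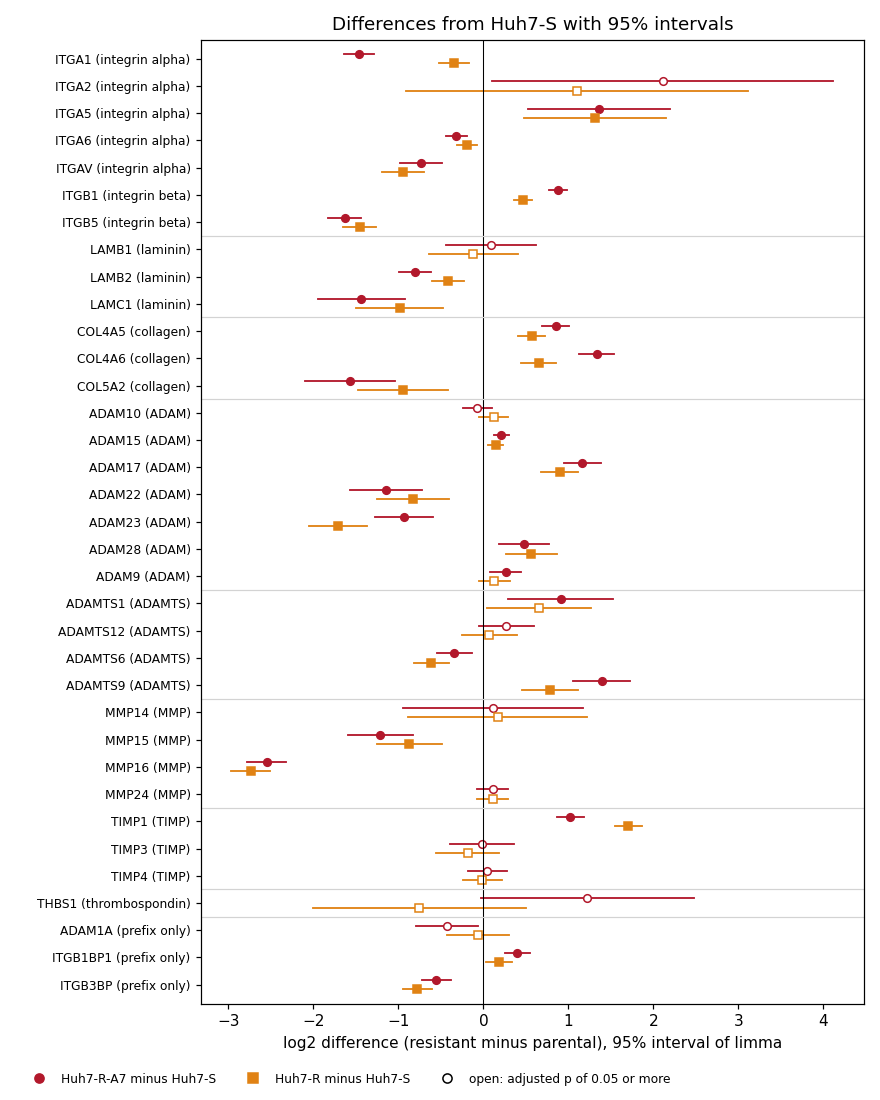
Log2 difference from Huh7-S for each of the 35 members, by family (rows), for Huh7-R-A7 (red circles) and Huh7-R (orange squares), with the 95% interval of the limma fit. Filled symbols passed at an adjusted p below 0.05, and passing members lie on both sides of 0 among integrins, collagens, ADAM and ADAMTS members, with MMP16 the lowest at -2.55 in Huh7-R-A7 and -2.73 in Huh7-R.

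The integrin beta chain that most alpha chains pair with rose, while the one that pairs with ITGAV to bind vitronectin fell. ITGB1, the common beta chain of collagen, laminin and fibronectin receptors, measured 16.31, 16.28 and 16.34 in Huh7-R-A7, 15.90 on each of the 3 arrays of Huh7-R and 15.47, 15.42 and 15.40 in Huh7-S. The groups did not overlap, and the clone lay above the pool and the pool above the parental cells. The difference was 0.88 (SE 0.05, 1.84-fold, adjusted p = 7.1e-06) in the clone and 0.47 (SE 0.05, 1.38-fold, adjusted p = 1.4e-04) in the pool. ITGB5 measured 7.32, 7.29 and 7.50 in Huh7-R-A7, 7.43, 7.67 and 7.54 in Huh7-R and 9.01, 9.08 and 8.92 in Huh7-S. Both resistant groups lay below every parental array, by 1.63 on the log2 scale in the clone (a difference of -1.63, SE 0.08, 3.1-fold lower, adjusted p = 6.6e-06) and 1.46 in the pool (a difference of -1.46, SE 0.08, 2.74-fold lower, adjusted p = 1.2e-05).

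Of the 5 integrin alpha chains, ITGA5 rose and ITGA1, ITGA6 and ITGAV fell against Huh7-S, in the clone and in the pool. ITGA5, which joins ITGB1 in the fibronectin receptor, measured 10.60, 10.97 and 11.05 in Huh7-R-A7, 10.53, 11.08 and 10.86 in Huh7-R and 8.63, 10.11 and 9.79 in Huh7-S. Every resistant array was above every parental one, although Huh7-S replicate 1 was more than a log2 unit below the other parental arrays. The difference was 1.36 (SE 0.36, 2.57-fold, adjusted p = 0.017) in the clone and 1.31 (SE 0.36, 2.49-fold, adjusted p = 0.019) in the pool. Without Huh7-S replicate 1 these were 0.92 (adjusted p = 0.0096) and 0.88 (adjusted p = 0.012). The clone call was lost without Huh7-R-A7 replicate 2 or 3 and the pool call without Huh7-R replicate 2 or 3, with an adjusted p of up to 0.068.

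ITGA1, the alpha chain of a collagen receptor, measured 9.93, 9.70 and 9.81 in Huh7-R-A7, 10.93, 10.95 and 10.92 in Huh7-R and 11.36, 11.31 and 11.16 in Huh7-S. The 3 groups were ordered without overlap, the clone lowest. It fell by 1.46 on the log2 scale in the clone (SE 0.08, 2.76-fold, adjusted p = 7.8e-06) and by 0.34 in the pool (SE 0.08, 1.27-fold, adjusted p = 0.0078). ITGAV, the alpha chain of vitronectin receptors, measured 14.55, 14.47 and 14.58 in Huh7-R-A7, 14.10, 14.44 and 14.43 in Huh7-R and 15.13, 15.34 and 15.35 in Huh7-S. It thus lay below every parental array, as its partner ITGB5 did, with differences of -0.74 in the clone (SE 0.11, adjusted p = 9.9e-04) and -0.95 in the pool (SE 0.11, adjusted p = 2.9e-04). ITGA6, a laminin receptor chain, measured 8.87, 8.97 and 8.97 in Huh7-R-A7, 9.04, 9.07 and 9.07 in Huh7-R and 9.33, 9.24 and 9.20 in Huh7-S. The falls were small, at -0.32 in the clone (SE 0.05, adjusted p = 0.0019) and -0.19 in the pool (SE 0.05, adjusted p = 0.018), and that in the pool did not pass after median centring (adjusted p = 0.11), cyclic loess (0.12) or quantile normalization (0.1).

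ITGA2, the alpha chain of another collagen receptor, did not pass, and its values are shown because 1 parental array decided the call, a choice made after its values were seen. It measured 10.95, 11.00 and 10.93 in Huh7-R-A7, 9.72, 10.07 and 10.04 in Huh7-R and 11.24, 7.83 and 7.48 in Huh7-S. Huh7-S replicate 1 was above every resistant array and the other parental arrays were far below them. Over all arrays the difference was 2.11 (95% interval 0.10 to 4.12, adjusted p = 0.086) in the clone and 1.10 (95% interval -0.91 to 3.11, adjusted p = 0.33) in the pool. Without Huh7-S replicate 1 it was 3.30 (SE 0.14, adjusted p = 6.8e-06) and 2.29 (SE 0.14, adjusted p = 3.4e-05).

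**Figure D2:**
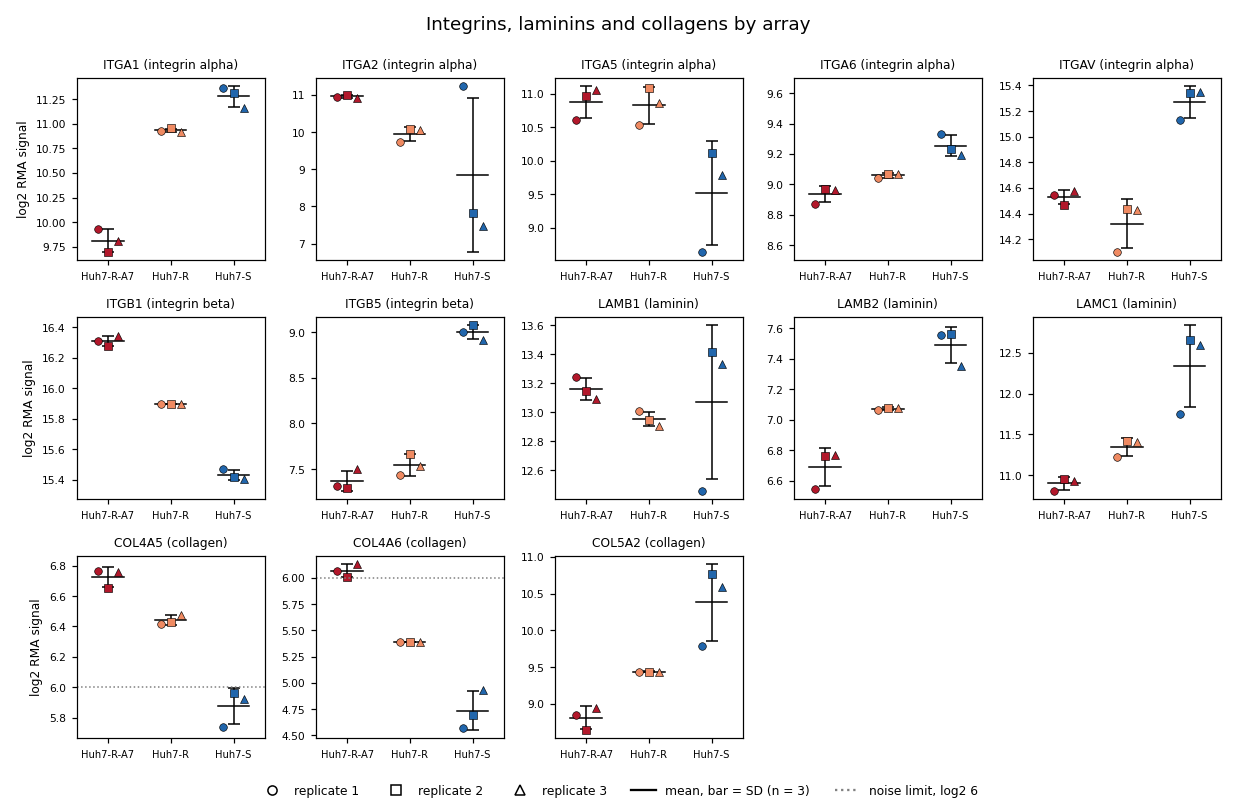
Log2 RMA signal on each array (points, shaped by replicate number) of the 7 integrins, 3 laminin chains and 3 collagen chains in Huh7-R-A7, Huh7-R and Huh7-S, with the group mean and SD (n = 3). The axes differ between panels; ITGB1 is highest in Huh7-R-A7 and lowest in Huh7-S, ITGA1 the reverse, and ITGA2 in Huh7-S has replicate 1 at 11.24 with the others at 7.83 and 7.48.

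The promoter windows of ITGA5 and ITGB1, the fibronectin receptor pair that rose, are shown as read from RefSeq on GRCh38.p14. Each runs from 250 bases before to 50 bases after a listed start, on the minus strand, at chr12:54419217-54419516 for ITGA5 and chr10:32958181-32958480 for ITGB1, which has 2 listed windows. Capitals mark CATTCC read on either strand, the core letters recognised by TEAD factors.
ITGA5: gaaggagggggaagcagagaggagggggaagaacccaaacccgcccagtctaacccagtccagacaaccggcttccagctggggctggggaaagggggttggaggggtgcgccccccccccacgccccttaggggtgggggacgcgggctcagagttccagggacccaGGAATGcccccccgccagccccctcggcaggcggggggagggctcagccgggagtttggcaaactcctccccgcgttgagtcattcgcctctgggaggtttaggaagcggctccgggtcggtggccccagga
ITGB1: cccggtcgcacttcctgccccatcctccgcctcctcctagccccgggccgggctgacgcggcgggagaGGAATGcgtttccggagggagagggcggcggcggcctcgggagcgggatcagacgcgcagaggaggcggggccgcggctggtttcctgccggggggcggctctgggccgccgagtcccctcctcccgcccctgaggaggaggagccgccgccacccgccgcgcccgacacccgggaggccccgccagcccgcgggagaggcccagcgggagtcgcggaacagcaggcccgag
These letters occurred in 14.0% of the 35116 windows of that length and in 6 of the 35 windows of members (17.1%), those of ADAM17, ADAMTS12, ADAMTS6, ITGA5, ITGB1 and THBS1. A window was found for 28 members, some with several. TGANTCA, the AP-1 site, occurred in 7.71% of all windows and in those of ADAMTS12 and ITGA5, and GGGCGG, the GC box, in 45.0% of all windows and 26 of the 35 member windows (74.3%). Both strands were read, matches of different motifs overlapped in 0 places of these windows, and a match describes the letters and is no evidence of binding.

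Of the laminin chains LAMC1 and LAMB2 fell, and LAMB1 had no settled direction. LAMC1, the gamma chain of most laminins, measured 10.81, 10.96 and 10.94 in Huh7-R-A7, 11.22, 11.43 and 11.40 in Huh7-R and 11.76, 12.66 and 12.60 in Huh7-S. All resistant arrays lay below the parental ones, with differences of -1.44 (SE 0.22, 2.71-fold lower, adjusted p = 0.0013) in the clone and -0.99 (SE 0.22, 1.98-fold lower, adjusted p = 0.008) in the pool. LAMB2, a beta chain of laminins at nerve and kidney basement membranes, measured 6.54, 6.76 and 6.77 in Huh7-R-A7, 7.07, 7.08 and 7.08 in Huh7-R and 7.56, 7.56 and 7.35 in Huh7-S. The groups did not overlap, and the differences were -0.80 in the clone (SE 0.08, adjusted p = 1.6e-04) and -0.42 in the pool (SE 0.08, adjusted p = 0.004). LAMB1, the beta chain of the widespread laminins, measured 13.24, 13.15 and 13.09 in Huh7-R-A7, 13.01, 12.95 and 12.91 in Huh7-R and 12.46, 13.41 and 13.34 in Huh7-S. Huh7-S replicate 1 was below all resistant arrays and the other parental arrays were above them. The clone difference was 0.09 (adjusted p = 0.78) over all arrays and -0.21 (adjusted p = 0.03) without Huh7-S replicate 1, and the pool difference was -0.12 (adjusted p = 0.71) and, without that array, -0.42 (adjusted p = 0.0017).

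The type IV collagen chains COL4A5 and COL4A6 rose and COL5A2, a chain of fibrillar type V collagen, fell. COL4A5 measured 6.76, 6.65 and 6.76 in Huh7-R-A7, 6.42, 6.43 and 6.48 in Huh7-R and 5.74, 5.96 and 5.92 in Huh7-S. The groups were ordered without overlap and the parental arrays lay below the noise limit, so the gene was at least 1.65-fold higher in the clone (difference 0.85, SE 0.07, adjusted p = 5.1e-05) and at least 1.36-fold higher in the pool (difference 0.57, SE 0.07, adjusted p = 3.9e-04). COL4A6 measured 6.07, 6.01 and 6.13 in Huh7-R-A7, 5.38 on each array of Huh7-R and 4.57, 4.70 and 4.93 in Huh7-S. Its order was the same, with differences of 1.33 in the clone (SE 0.09, adjusted p = 2.4e-05) and 0.65 in the pool (SE 0.09, adjusted p = 7.8e-04). Only the clone was above the noise limit, by little, which bounds its rise at 1.05-fold or more, gives no fold for the pool and leaves no COL4A6 call once values below 6 are set to 6 (difference 0.07, adjusted p = 0.16 in the clone). COL5A2 measured 8.85, 8.64 and 8.95 in Huh7-R-A7, 9.43, 9.44 and 9.44 in Huh7-R and 9.79, 10.76 and 10.59 in Huh7-S. It was lowest in the clone, with differences of -1.57 (SE 0.23, 2.97-fold lower, adjusted p = 0.001) in the clone and -0.95 (SE 0.23, 1.93-fold lower, adjusted p = 0.011) in the pool.

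COL4A5 and COL4A6 lie head to head on the X chromosome, and their start windows share sequence. The window of COL4A5 is chrX:108439588-108439887 on the plus strand and that of COL4A6 is chrX:108439409-108439708 on the minus strand, 1 of 2 listed for that gene. Their starts are 380 bases apart, and the 121 bases from 108439588 to 108439708 belong to both windows, given here in capitals on the strand of each gene.
COL4A5: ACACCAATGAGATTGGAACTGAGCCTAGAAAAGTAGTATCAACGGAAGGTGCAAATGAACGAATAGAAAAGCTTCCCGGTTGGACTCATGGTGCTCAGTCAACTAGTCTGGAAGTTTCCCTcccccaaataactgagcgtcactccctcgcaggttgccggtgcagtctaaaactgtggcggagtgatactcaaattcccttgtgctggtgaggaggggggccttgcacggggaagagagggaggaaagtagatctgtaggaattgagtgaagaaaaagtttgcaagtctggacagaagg
COL4A6: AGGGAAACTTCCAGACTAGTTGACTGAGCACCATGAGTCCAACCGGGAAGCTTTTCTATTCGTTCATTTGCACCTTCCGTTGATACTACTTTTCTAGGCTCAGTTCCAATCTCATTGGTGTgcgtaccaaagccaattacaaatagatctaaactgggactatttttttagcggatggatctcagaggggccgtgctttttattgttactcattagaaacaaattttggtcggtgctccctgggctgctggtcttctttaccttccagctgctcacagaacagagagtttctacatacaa
In these 2 chains the order of the groups was the same, highest in Huh7-R-A7 and lowest in Huh7-S. For COL4A6 all pool and parental arrays lay below the noise limit, so the order of those groups is uncertain. Whether the shared sequence plays a part was not tested.

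Among the membrane-anchored ADAM members the protease ADAM17 rose and the protease-dead ADAM22 and ADAM23 fell. ADAM17, the enzyme that releases tumour necrosis factor and ligands of the epidermal growth factor receptor, measured 10.78, 10.95 and 10.94 in Huh7-R-A7, 10.64, 10.61 and 10.61 in Huh7-R and 9.52, 9.79 and 9.86 in Huh7-S. Both resistant groups stood clear of the parental arrays, at 2.24-fold (difference 1.16, SE 0.09, adjusted p = 5.5e-05) in the clone and 1.86-fold (difference 0.90, SE 0.09, adjusted p = 2.1e-04) in the pool. ADAM23, a receptor of secreted LGI proteins known from neurons, measured 8.74, 9.06 and 9.02 in Huh7-R-A7, 8.38, 8.02 and 8.08 in Huh7-R and 10.12, 9.81 and 9.69 in Huh7-S. It was lowest in the pool and did not overlap between groups, with differences of -0.94 (SE 0.15, 1.91-fold lower, adjusted p = 0.0016) in the clone and -1.71 (SE 0.15, 3.28-fold lower, adjusted p = 8.1e-05) in the pool. ADAM22, another such receptor, measured 5.35, 5.57 and 5.65 in Huh7-R-A7, 5.66, 5.93 and 5.93 in Huh7-R and 6.25, 6.98 and 6.78 in Huh7-S. The resistant arrays all lay below the noise limit, so it was at least 1.59-fold lower in the clone (difference -1.15, SE 0.18, adjusted p = 0.0017) and in the pool (difference -0.83, SE 0.18, adjusted p = 0.0076).

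The other ADAM proteases changed little. ADAM28, an ADAM first known from lymphocytes, measured 6.55, 6.80 and 6.82 in Huh7-R-A7, 6.54, 6.98 and 6.91 in Huh7-R and 6.15, 6.28 and 6.31 in Huh7-S. The parental arrays were lowest, with differences of 0.47 in the clone (SE 0.13, adjusted p = 0.019) and 0.57 in the pool (SE 0.13, adjusted p = 0.0083), and the clone call was lost without Huh7-R-A7 replicate 2, Huh7-R-A7 replicate 3 or Huh7-S replicate 1 (adjusted p up to 0.066). ADAM9, a widespread surface protease, measured 15.31, 15.23 and 15.28 in Huh7-R-A7, 15.14 on each array of Huh7-R and 14.84, 15.08 and 15.12 in Huh7-S. It passed in the clone at 0.26 (SE 0.08, adjusted p = 0.027), a call lost without any 1 of the clone arrays (adjusted p up to 0.076), and the pool difference was 0.13 (adjusted p = 0.21). ADAM15 differed by 0.21 (SE 0.04, adjusted p = 0.0034) in the clone and 0.15 (SE 0.04, adjusted p = 0.017) in the pool. ADAM10, which cuts Notch receptors and cadherins, differed by -0.07 (95% interval -0.25 to 0.10) and 0.12 (95% interval -0.05 to 0.29), and neither passed.

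In the ADAMTS family ADAMTS9 rose. ADAMTS9, a protease of the proteoglycans versican and aggrecan, measured 8.21, 8.48 and 8.32 in Huh7-R-A7, 7.70, 7.74 and 7.74 in Huh7-R and 6.60, 7.17 and 7.06 in Huh7-S. The groups were ordered without overlap, the clone highest, at 2.62-fold (difference 1.39, SE 0.14, adjusted p = 1.8e-04) in the clone and 1.72-fold (difference 0.78, SE 0.14, adjusted p = 0.0031) in the pool. ADAMTS1, which cuts the same proteoglycans, measured 10.47, 9.56 and 9.48 in Huh7-R-A7, 9.79, 9.48 and 9.48 in Huh7-R and 8.69, 9.19 and 8.91 in Huh7-S. Replicate 1 was the highest array of both resistant groups. The clone difference was 0.91 (SE 0.26, adjusted p = 0.026), or 0.59 (adjusted p = 0.028) without Huh7-R-A7 replicate 1. The clone call was lost without Huh7-S replicate 1 or 3 (adjusted p up to 0.072). The pool difference was 0.65 (SE 0.26, adjusted p = 0.079), and it passed without Huh7-R-A7 replicate 1 (adjusted p = 0.011). In fits of only the arrays of each comparison, the pool passed (adjusted p = 0.024) and the clone did not (adjusted p = 0.066).

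ADAMTS6 and ADAMTS12 gave little. ADAMTS6 measured 5.69 on each array of Huh7-R-A7, 5.42, 5.40 and 5.43 in Huh7-R and 5.83, 6.20 and 6.05 in Huh7-S. All groups were at or below the noise limit, the falls of -0.34 (adjusted p = 0.016) and -0.61 (adjusted p = 9.7e-04) bound the fold at 1.02 or more, and neither call held with values below 6 set to 6 (adjusted p = 0.21 and 0.2). The clone call for ADAMTS6 also did not pass after median centring (adjusted p = 0.068). ADAMTS12 measured 9.63, 9.11 and 9.11 in Huh7-R-A7, 9.11, 9.11 and 9.02 in Huh7-R and 8.88, 9.11 and 9.04 in Huh7-S, with the groups overlapping and no call in any comparison.

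The 4 matrix metalloproteinases in the table are all of the membrane-bound type, and of them MMP16 and MMP15 fell. MMP16 measured 6.27, 6.13 and 6.11 in Huh7-R-A7, 5.81, 6.19 and 5.96 in Huh7-R and 8.66, 8.70 and 8.80 in Huh7-S. The parental arrays were far above the others, which lay at the noise limit, and no called member differed more from Huh7-S. It was 5.85-fold lower in the clone (difference -2.55, SE 0.10, adjusted p = 1.9e-06) and at least 6.31-fold lower in the pool (difference -2.73, SE 0.10, adjusted p = 1.4e-06). MMP15 measured 5.29, 5.38 and 5.11 in Huh7-R-A7, 5.62, 5.62 and 5.56 in Huh7-R and 6.27, 6.89 and 6.25 in Huh7-S. All resistant arrays were below the noise limit and all parental arrays above it, and the gene was at least 1.39-fold lower in the clone (difference -1.21, SE 0.17, adjusted p = 7.6e-04) and in the pool (difference -0.87, SE 0.17, adjusted p = 0.0038).

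MMP14 and MMP24 did not pass. MMP14, a collagenase that also activates the gelatinase MMP2, measured 10.50, 10.71 and 10.71 in Huh7-R-A7, 10.37, 11.02 and 10.71 in Huh7-R and 9.35, 11.29 and 10.95 in Huh7-S. Huh7-S replicate 1 was the lowest of all arrays and Huh7-S replicate 2 the highest. The clone difference was 0.11 (95% interval -0.94 to 1.17) over all arrays and -0.48 (95% interval -0.95 to -0.01, adjusted p = 0.092) without Huh7-S replicate 1, and for the pool 0.17 (95% interval -0.88 to 1.22) and, without that array, -0.42 (adjusted p = 0.13). MMP24 measured 6.17, 6.08 and 6.09 in Huh7-R-A7, 6.15, 6.09 and 6.10 in Huh7-R and 5.83, 6.09 and 6.09 in Huh7-S, near the noise limit in all groups.

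Of the TIMP inhibitors TIMP1 rose. TIMP1, a secreted inhibitor of most matrix metalloproteinases, measured 6.33 on each array of Huh7-R-A7, 7.13, 6.91 and 6.98 in Huh7-R and 5.23, 5.29 and 5.39 in Huh7-S. The pool was highest, the clone lay between, and the parental arrays were below the noise limit. It was at least 1.25-fold higher in the clone (difference 1.02, SE 0.07, adjusted p = 2.3e-05) and at least 2.01-fold higher in the pool (difference 1.71, SE 0.07, adjusted p = 2.3e-06). TIMP3, a matrix-bound inhibitor that also acts on ADAM17, measured 7.27, 6.90 and 6.90 in Huh7-R-A7, 6.90, 6.89 and 6.78 in Huh7-R and 7.39, 6.90 and 6.83 in Huh7-S, overlapping throughout. The means of TIMP4 were below the noise limit in all groups.

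THBS1, a secreted glycoprotein that binds integrins and proteoglycans and can activate latent transforming growth factor beta, measured 13.00, 11.32 and 11.03 in Huh7-R-A7, 10.66, 9.40 and 9.36 in Huh7-R and 10.44, 10.66 and 10.58 in Huh7-S. Every clone array was above every parental array, and the pool had replicate 1 at the parental level with the others below it. Neither difference passed, at 1.22 (95% interval -0.03 to 2.48, adjusted p = 0.11) in the clone and -0.75 (95% interval -2.01 to 0.50, adjusted p = 0.29) in the pool. With replicates 2 and 3 of each group alone, an alternative chosen after seeing the data, these were 0.55 (adjusted p = 0.013) and -1.24 (adjusted p = 0.001).

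**Figure D3:**
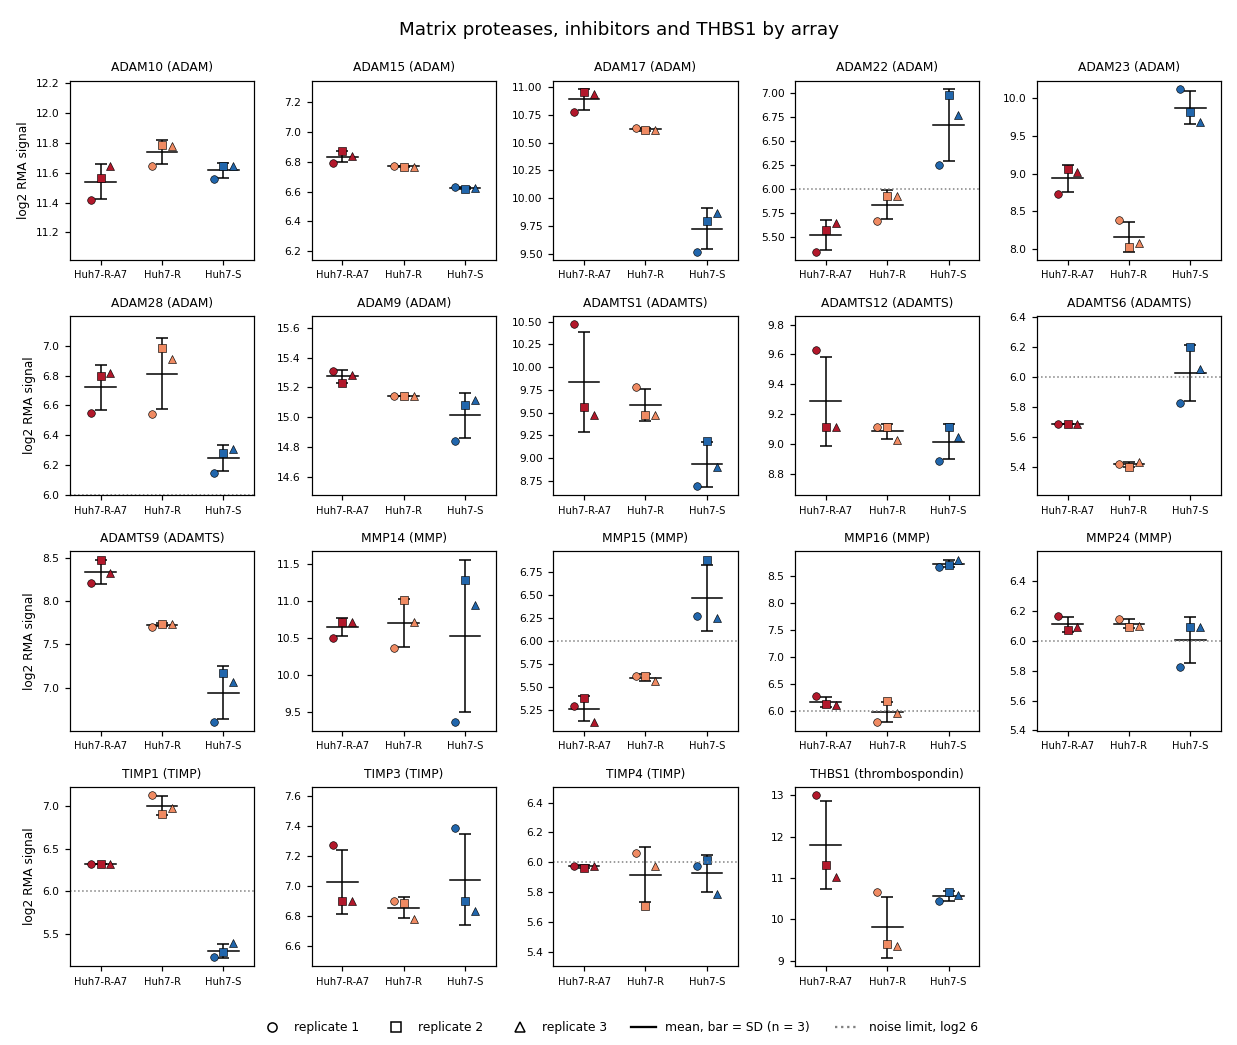
Log2 RMA signal on each array (points, shaped by replicate number) of the 7 ADAM, 4 ADAMTS, 4 MMP and 3 TIMP members and THBS1 in Huh7-R-A7, Huh7-R and Huh7-S, with the group mean and SD (n = 3) and the noise limit at log2 6 dotted where in range. The axes differ between panels; ADAMTS9 is highest in Huh7-R-A7, TIMP1 in Huh7-R and MMP16 in Huh7-S, and replicate 1 of THBS1 is the highest array of both resistant groups.

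Of the 3 genes that share only the letters, ITGB1BP1, whose protein binds the ITGB1 tail, was 0.40 higher in the clone (SE 0.06, adjusted p = 0.0018) and 0.19 higher in the pool (SE 0.06, adjusted p = 0.049), the pool call being lost without any 1 of 6 arrays (adjusted p up to 0.12): Huh7-R-A7 replicate 2, Huh7-R replicates 1, 2 and 3 and Huh7-S replicates 2 and 3. ITGB3BP fell by 0.55 (SE 0.07, adjusted p = 7.1e-04) in the clone and by 0.78 (SE 0.07, adjusted p = 1.4e-04) in the pool. ADAM1A differed by -0.43 (adjusted p = 0.061) and -0.07 (adjusted p = 0.76).

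The clone and the pool it was grown from were then compared with each other, in the fit of 9 arrays that does not pair them by replicate number. In Huh7-R-A7 against Huh7-R, 5 members were higher and 3 lower (22.9%), where 8.63% of all genes passed, 4.11% higher and 4.52% lower. The 3 arrays of each group did not overlap for 24 members (68.6%), where this held for 31.4% of all genes. ITGA1 alone passed with a fold of at least 2, where 0.91% of all genes did so on the fold or its bound and 1.07% on the difference as measured, and no member met the stricter limits, which 0.133% and 0.153% of all genes met. ITGA1 differed most among those that passed, at -1.12 (SE 0.08, 2.17-fold lower in the clone, adjusted p = 2.4e-04). ITGB1 was 1.33-fold higher in the clone (difference 0.41, SE 0.05, adjusted p = 0.0019) and TIMP1 1.6-fold lower (difference -0.68, SE 0.07, adjusted p = 0.0013). COL4A6 was at least 1.05-fold higher (difference 0.68, SE 0.09, adjusted p = 0.0042). Its pool arrays lay below the noise limit, and the call was lost with values below 6 set to 6 (difference 0.07, adjusted p = 0.31). ITGA1, ITGB1, TIMP1 and COL4A6 passed with each of the 9 arrays left out in turn. The 3 arrays of Huh7-R were equal for ITGB1 and COL4A6, and those of Huh7-R-A7 for TIMP1. Leaving out 1 of these equal arrays could not change the mean of its group, so this check is weaker for these genes than for ITGA1.

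The calls for ADAM23, ADAMTS9, LAMB2 and COL4A5 between clone and pool were lost when some single arrays were left out. ADAM23 was 1.71-fold higher in the clone (difference 0.78, SE 0.15, adjusted p = 0.019), ADAMTS9 1.52-fold higher (difference 0.61, SE 0.14, adjusted p = 0.04), COL4A5 1.22-fold higher (difference 0.28, SE 0.07, adjusted p = 0.042) and LAMB2 1.3-fold lower (difference -0.38, SE 0.08, adjusted p = 0.027). ADAM23 did not pass without replicate 2 or 3 of either resistant group (adjusted p up to 0.08), and LAMB2 did not pass without any 1 of the 6 resistant arrays (adjusted p up to 0.095). ADAMTS9 and COL4A5 did not pass without any 1 of those 6 or without Huh7-S replicate 3 (adjusted p up to 0.13 for each), and COL4A5 did not pass after median centring (adjusted p = 0.097).

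Arrays of clone and pool with the same replicate number deviated together. On the 6 arrays of these groups alone, without Huh7-S, 8 members were higher and 6 lower with no block, where 11.8% of all genes passed, and 8 higher and 7 lower with the replicate number as a block, where 18.6% passed. With the block on all 9 arrays 6 were higher and 3 lower, where 10.3% passed. In that fit COL4A5 did not pass (adjusted p = 0.061) and ITGB1BP1 did (0.21, adjusted p = 0.048). ITGA2, LAMC1, COL5A2, ADAMTS6 and MMP15 passed on the 6 arrays with and without the block and in neither fit of 9 arrays. For ITGA2 the difference was 1.01, with an adjusted p of 0.014 with the block on 6 arrays, 0.0059 without it and 0.53 with the block on 9 arrays. Of these fits and the one of 9 arrays with no block, THBS1 passed only in those with the block, at a difference of 1.98 (SE 0.15, adjusted p = 0.013 on 6 arrays, 0.041 on 9 arrays), and without it the adjusted p was 0.13 on 6 arrays and 0.067 on 9 arrays (SE 0.54, 3.93-fold higher in the clone), with each replicate 1 array the highest of its group. Among the same fits, LAMB1 (0.21, adjusted p = 0.036) and ADAM22 (-0.32, adjusted p = 0.02) passed only with the block on 6 arrays. ADAM17 (0.27, adjusted p = 0.044) passed among them only on 6 arrays without the block. Outside these fits ADAM17 also passed without Huh7-S replicate 1 (adjusted p = 0.026) and with replicates 2 and 3 of each group (adjusted p = 0.01). ADAM23 was lost with the block on 6 arrays (adjusted p = 0.055). The means of ADAM22, ADAMTS6 and MMP15 were below the noise limit in both groups. For ADAM9 the difference between clone and pool was 0.13 (adjusted p = 0.37) and for ADAMTS1 0.26 (adjusted p = 0.63), so that neither was shown to differ between them.

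**Figure D4:**
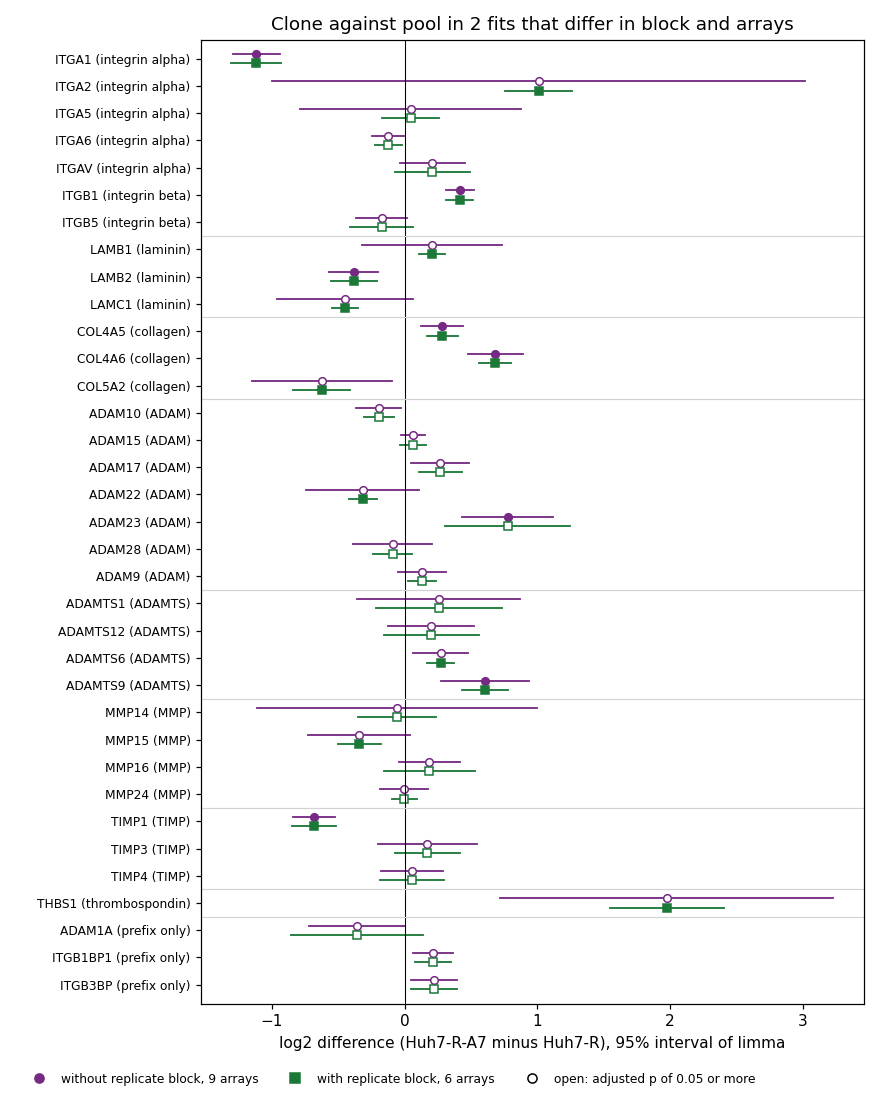
Log2 difference of Huh7-R-A7 minus Huh7-R for each of the 35 members, by family (rows), from the fit of 9 arrays without a block (purple circles) and the fit of 6 arrays with the replicate number as a block (green squares), with 95% intervals. Filled symbols passed at an adjusted p below 0.05, which 8 members did on 9 arrays without the block and 15 on 6 arrays with it, against 14 on the same 6 arrays without it, and the 95% interval of THBS1 ran from 1.55 to 2.41 on 6 arrays with the block and from 0.72 to 3.23 on 9 arrays without it.

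The genes that work with these families were counted in 6 lists, named by function. Of 19 measured focal adhesion and integrin signalling genes, 4 rose and 3 fell in the clone and 5 rose and 2 fell in the pool. This was 36.8% in each, where 42.7% of all genes passed in the clone and 45.1% in the pool. CAV1, a membrane scaffold protein, was 2.33 higher in the clone and 1.72 higher in the pool (adjusted p = 9.2e-05 and 4.2e-04). PARVA, an actin-binding partner of integrin-linked kinase, was 1.11 and 1.77 higher (adjusted p = 4.7e-05 and 5.3e-06). TLN2 was lower, at -0.95 and -0.97 (adjusted p = 0.038 and 0.033), with Huh7-S replicate 1 at 6.97 and the other parental arrays at 8.30 and 8.09. Of 10 adhesion partners of hemidesmosomes and laminins, 5 rose and 2 fell in the clone (70.0%, beside 42.7% of all genes) and 7 rose and 2 fell in the pool (90.0%, beside 45.1%). CD44, a hyaluronan receptor below the noise limit in Huh7-S, was at least 6.08-fold higher in the clone and at least 6.56-fold higher in the pool (adjusted p = 2.1e-04 and 1.9e-04). BCAM, a laminin receptor, was lower, at -2.86 in the clone and -2.27 in the pool (adjusted p = 4.6e-06 and 1.3e-05). Both directions thus occurred within this list.

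Of 15 basement membrane proteins and other integrin ligands, 4 rose and 4 fell in the clone (53.3%, beside 42.7% of all genes) and 2 rose and 3 fell in the pool (33.3%, beside 45.1%). NID1, which links laminin to type IV collagen, was lower, at -1.86 in the clone and -2.90 in the pool (adjusted p = 0.001 and 1.2e-04). VCAN, the versican cut by ADAMTS1 and ADAMTS9, was 3.08 and 2.99 higher (adjusted p = 0.0096 and 0.011), with Huh7-S replicate 1 at 10.91 and the other parental arrays at 8.16 and 7.89. Of 19 genes of collagen synthesis and cross-linking, 9 rose and 3 fell in the clone (63.2%, beside 42.7% of all genes) and 11 rose and 2 fell in the pool (68.4%, beside 45.1%), with LOXL2, a collagen cross-linking oxidase, 1.35 and 1.64 higher (adjusted p = 1.4e-05 and 5.5e-06) and its relative LOXL4 lower, at -2.13 and -1.59 (adjusted p = 3.2e-05 and 1.4e-04). The median of this list was 0.55 in the clone and 0.44 in the pool, beside -0.04 and -0.03 over all genes.

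Of 12 regulators and partners of matrix proteases, 3 rose and 2 fell in the clone (41.7%, beside 42.7% of all genes) and 5 rose and 3 fell in the pool (66.7%, beside 45.1%). TSPAN15, a tetraspanin that steers ADAM10 to its substrates, was 1.38 and 1.23 higher (adjusted p = 9.0e-06 and 1.6e-05). Of 10 substrates shed by ADAM proteases and their receptors, 3 rose in the clone (30.0%, beside 42.7% of all genes) and 5 in the pool (50%, beside 45.1%) and none fell. CX3CL1, a membrane chemokine released by ADAM10 and ADAM17, was 1.34 and 1.72 higher (adjusted p = 0.0056 and 0.0016), and MET, the receptor of hepatocyte growth factor, 0.89 and 0.51 higher (adjusted p = 2.4e-05 and 3.9e-04). In the clone against the pool 0 to 3 genes of each list rose and 0 to 3 fell, a share of 0.0% to 33.3% beside 8.63% of all genes. Of the genes named here from these lists, MET was 0.39 higher in the clone than in the pool (adjusted p = 0.0079), and PARVA and BCAM were lower, at -0.66 (adjusted p = 0.0041) and -0.59 (adjusted p = 0.035).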

How the data were processed

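Gene expression was profiled on Affymetrix Human Transcriptome Arrays in 3 cultures each of Huh7-R-A7, Huh7-R and Huh7-S. The authors deposited log2 signals which, per the labels, come from RMA in Affymetrix Expression Console. The program version and the genome build are not given in the sources used here. Of 11013 probe sets, 9851 had 1 symbol, 624 several and 538 none in the annotation used here. After 77 symbols were updated, 67 genes with several probe sets were averaged, which gave 9784 genes. The filter of the study's methods (below log2 6 on more than 85% of arrays) removed 0. No arrays were identical, but 59.965% of probe sets held equal values on at least 2 arrays. Array medians lay between 8.22 and 8.38, and the number of arrays limits the precision.

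Groups followed the sample titles. Comparisons were tested in limma 3.58.1 (R 4.3.3) by lmFit and eBayes with a trend on signal, with all 9 arrays, a term for group alone (6 residual degrees of freedom) and Benjamini-Hochberg adjustment of two-sided p over all genes. The tests were checked on simulated data with normal noise drawn independently for each gene and array. These simulated data held no outlying array, replicate pairing or equal values, so the check does not cover them. Members, gene lists and tests were chosen with earlier results of these data known. Values per array are given for every member of families of up to 4, except a member with all group means below log2 6 (TIMP4), and for the 5 largest called changes of larger ones, and up to 4 genes of each list, those with the largest called changes from Huh7-S, could be named. Sequences came from RefSeq (GRCh38.p14), and proteins were not analysed here. Over all genes, same-numbered arrays of Huh7-R-A7 and Huh7-R deviated together (correlations of 0.60, 0.49 and 0.42), a pairing which the data show and the labels do not state. The reported fit did not use this pairing, and fits with the replicate number as a block were run as alternatives. Huh7-S did not pair with either resistant group (-0.21 to 0.10). Alternatives were other scalings, variance priors, array weights, arrays in the fit, the replicate block, probe set rules, noise filters, stricter thresholds and each array left out. Python 3.11.15, pandas 2.3.3 and matplotlib 3.10.9 made tables and figures.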

Additional observations from a re-analysis of the deposited data

Results flagged for a closer look

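In 8 members the change from Huh7-S differed between clone and pool by the limma test of that difference, which is the same test as Huh7-R-A7 against Huh7-R above. Clone minus pool, these were -1.12 for ITGA1, 0.41 for ITGB1, -0.68 for TIMP1, 0.68 for COL4A6, 0.78 for ADAM23, 0.61 for ADAMTS9, 0.28 for COL4A5 and -0.38 for LAMB2.

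A signal was also found in probe sets with several symbols, which no comparison above used. The probe set of CEP295NL and TIMP2, an inhibitor of matrix metalloproteinases, was 1.31 higher in Huh7-R-A7 (SE 0.07, limma adjusted p = 8.1e-06 over 11013 probe sets) and 1.21 higher in Huh7-R (adjusted p = 1.2e-05) than in Huh7-S. The probe set of PELO and ITGA1 differed by -0.53 (SE 0.09, adjusted p = 0.0028) and -0.37 (adjusted p = 0.015). Between clone and pool it did not pass, at -0.16 (adjusted p = 0.37), where the probe set of ITGA1 alone differed by -1.12. Neither of these probe sets with several symbols can be assigned to 1 gene. The probe set of LAMA5 and MIR4758 did not pass, at -0.42 (adjusted p = 0.072) and -0.20 (adjusted p = 0.34). The fit of all probe sets was chosen after seeing the data.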

How the results depend on the processing

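Members that passed against Huh7-S kept their direction in all alternatives run, except COL4A6 in the pool, whose difference was 0.00 with values below log2 6 set to 6. Huh7-R-A7 against Huh7-R gave 10 higher and 7 lower (17 in all) with array weights, where 25.3% of all genes passed (8.63% as reported), 8 and 6 (14) with only the arrays of both groups (11.8% of all genes), 8 and 7 (15) with the replicate block on those arrays (18.6%) and 9 and 5 (14) with replicates 2 and 3 of each group (18.5%), the last chosen after seeing the data. With the replicate block on all arrays the counts were 12 higher and 13 lower for the clone (44.6% of all genes passed), 10 and 13 for the pool (46.7%) and 6 and 3 between them (10.3%). Against Huh7-S, which is not paired by number, the block on the arrays of each comparison left 9 and 12 in the clone and 8 and 11 in the pool. The share of all genes also fell there, to 30.3% in the clone (42.7% as reported) and 34.6% in the pool (45.1%). In that fit the clone calls of ADAM9, ADAM15, ADAMTS1, ADAMTS6 and ITGA6 and the pool calls of ADAM15, COL5A2, ITGA6 and ITGB1BP1 were lost. For ADAM15 the adjusted p was 0.061 in the clone and 0.091 in the pool, and ADAM1A passed lower in the clone (adjusted p = 0.025). Limited to genes with 9 different values, which keeps 15 members, the counts were 6 and 7 (13) for the clone, where 64.8% of the genes tested passed. They were 5 and 6 (11) for the pool, where 67.6% passed, and 3 and 1 (4) between them, where 9.78% passed. These counts were lower because fewer members were tested. At an adjusted p below 0.05 and a measured difference of at least 2-fold the counts over all members were 5 and 7 (12), 2 and 3 (5) and 0 and 1 (1). On the fold or its bound, chosen after seeing the data, they were 3 and 5 (8), 2 and 3 (5) and 0 and 1 (1). At the stricter limits after the study's methods they were 0 and 1 (1), 1 and 1 (2) and 0 and 0 (0) on measured differences, and 0 and 1 (1), 0 and 1 (1) and 0 and 0 (0) on the fold or its bound.

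With 1 array left out, the counts ranged over 9 to 12 higher, 13 to 14 lower and 22 to 25 in all for the clone, 8 to 11, 13 to 14 and 21 to 25 for the pool and 2 to 8, 2 to 5 and 4 to 13 between them. The highest totals for the pool (25) and between them (13) came without Huh7-S replicate 1. In that fit 47.1% of all genes passed in the pool (45.1% as reported) and 13.6% between clone and pool (8.63% as reported). LAMB1 in the clone against Huh7-S, 0.09, ranged over -0.21 to 0.26 with 1 array left out, reversing to -0.21 without Huh7-S replicate 1 and to -0.25 with replicates 2 and 3 of each group; the cause was not tested. In 15 uncalled pairs of member and comparison the sign changed in some fit. Near or below log2 6 the signal over background limits sizes.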
